A study of Saccharomyces cerevisiae with 12 samples.

Results

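The transcripts of an untreated P-body mutant were compared with those of untreated wild type (WT) in the budding yeast Saccharomyces cerevisiae. The comparison covered 5665 transcripts, all those with a mean normalized read count of at least 10 over its 4 libraries, of 5945 in the deposited table and 5967 in the series. The choice of transcripts used no difference between the strains. The WT was BY4741, a haploid laboratory strain. The mutant, edc3∆lsm4∆C, is labelled as made in BY4741 and lacks the EDC3 gene and the Q/N-rich C-terminal domain of Lsm4. Each group had 2 libraries, from cells grown at 30 °C in medium lacking uracil with nothing added. The labels do not say whether the mutant was 1 clone or whether replicates were separate cultures, so the tests see only the variation among these libraries, which may be technical. Values from 3 more groups of 2 libraries are set beside the main ones where they bear on a result. These are WT and the mutant grown in 100 mM sodium perchlorate, and WT that served as the unshocked control of a shock-wave experiment.

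P-bodies are cytoplasmic condensates of untranslated mRNA with the enzymes that remove the mRNA cap and degrade the message from its 5′ end. Edc3 is a scaffold that binds the decapping enzyme Dcp2 and joins its complexes to each other, and the prion-like C-terminal domain of Lsm4, a subunit of the Lsm1-7 ring that binds shortened mRNA tails, adds further contacts. Cells without both are known to form few visible P-bodies. Edc3 also has direct mRNA substrates in yeast, the RPS28B mRNA and the unspliced transcript of YRA1.

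Transcripts for mitochondrial gene expression and respiration were higher in the mutant as groups. Of 73 genes for mitochondrial ribosomal proteins 71 were higher, with a median of 2.06-fold, and CYC1, which encodes the main form of cytochrome c, was 9.2-fold higher. Both Edc3 substrates, RPS28B and YRA1, were higher. Genes for cell separation, purine synthesis and branched-chain amino acid synthesis were lower, but the median of the branched-chain genes lay near that of unshocked WT. The strains also differed in mating type and in marker genes, and the effects of the mutations and of such strain differences cannot be told apart in any result here.

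The mutated genes and the strain background were examined first. EDC3 had 764 and 857 reads in the WT libraries and 2 and 4 in the mutant libraries. The mutant-to-WT ratio of its normalized reads was 0.00325 (95% counting interval 0.00119 to 0.00710, which covers counting error only). LSM4 had normalized read counts of 612 and 798 in WT and 642 and 681 in the mutant, and the groups overlapped. Its log2 fold change was -0.08 ± 0.16, where ± is the SE here and below, with an adjusted p of 0.748 by limma. Reads summed over the gene cannot show whether its C-terminal end was removed.

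The cell-type genes went against the label that places the mutant in BY4741, an a-mating-type strain. All 7 a-cell genes were lower in the mutant. STE2, the receptor for alpha factor, had normalized read counts of 8349 and 9850.4 in WT and 36.4 and 46 in the mutant (log2 fold change -7.76 ± 0.16, adjusted p = 1.84e-06). MFA1 and MFA2, which encode a-factor, changed by -8.46 and -5.58. The other a-cell genes are BAR1, the protease that degrades alpha factor (-7.33), STE6, the exporter of a-factor (-4.48), AGA2, a subunit of a-agglutinin (782 and 745 reads in WT, 1 and 0 in the mutant), and ASG7, which acts on pheromone signalling (-5.75).

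All 5 tested genes of alpha cells were higher. Of the 9 listed, the alpha genes of the silent cassette and of the active locus were below the filter and not tested. In the mutant HMLALPHA1 had 5 and 8 reads, HMLALPHA2 2 and 2, MATALPHA1 0 and 0 and MATALPHA2 0 and 3. In WT all had 0 and 0 except MATALPHA2, with 1 and 0. STE3, the receptor for a-factor, had counts of 126 and 154 in WT and 3931 and 4279.7 in the mutant (log2 fold change 4.87 ± 0.14, adjusted p = 7.75e-06). MF(ALPHA)1 and MF(ALPHA)2, which encode alpha factor, changed by 11.58 and 8.73, AFB1, which encodes a blocker of a-factor, by 3.21, and the alpha-agglutinin gene SAG1 by 0.95. The SAG1 call was lost without mutant replicate 2 (adjusted p = 0.0773) and without WT replicate 1 (0.059). HMRA1 is the a1 gene of the silent cassette. The reference annotation has alpha genes at the active mating-type locus, so reads from an active a locus would be counted on HMRA1. It had 356 and 386 reads in WT and 0 and 0 in the mutant, at least 141-fold lower against a limit of 3 reads per library.

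Auxotrophic and other markers differed as well. The leucine synthesis gene LEU2 and the methionine synthesis gene MET17 are deleted in BY4741 and had 0 reads in both WT libraries. In the mutant LEU2 had 6319 and 5366 reads, at least 1703-fold higher, and MET17 had 8873 and 9926 reads, at least 2749-fold higher. URA3, for uracil synthesis, had 2468 and 2071 reads in WT and 8489 and 8675 in the mutant, and was 3.33-fold higher. Reads summed over the gene cannot show whether they came from the chromosome or from an introduced copy in either strain. TRP1, for tryptophan synthesis, was 3.95-fold lower. HO, the mating-type switching endonuclease gene, changed by -1.03 and ADE2, for adenine synthesis, by -0.98. HIS3, LYS2 and CAN1 did not pass the test (0.33, -0.01 and -0.15). YHR054C, which lies in the copper-metallothionein repeat and has near-identical copies, had 112 and 95 reads in WT and 0 and 0 in the mutant.

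**Figure D1:**
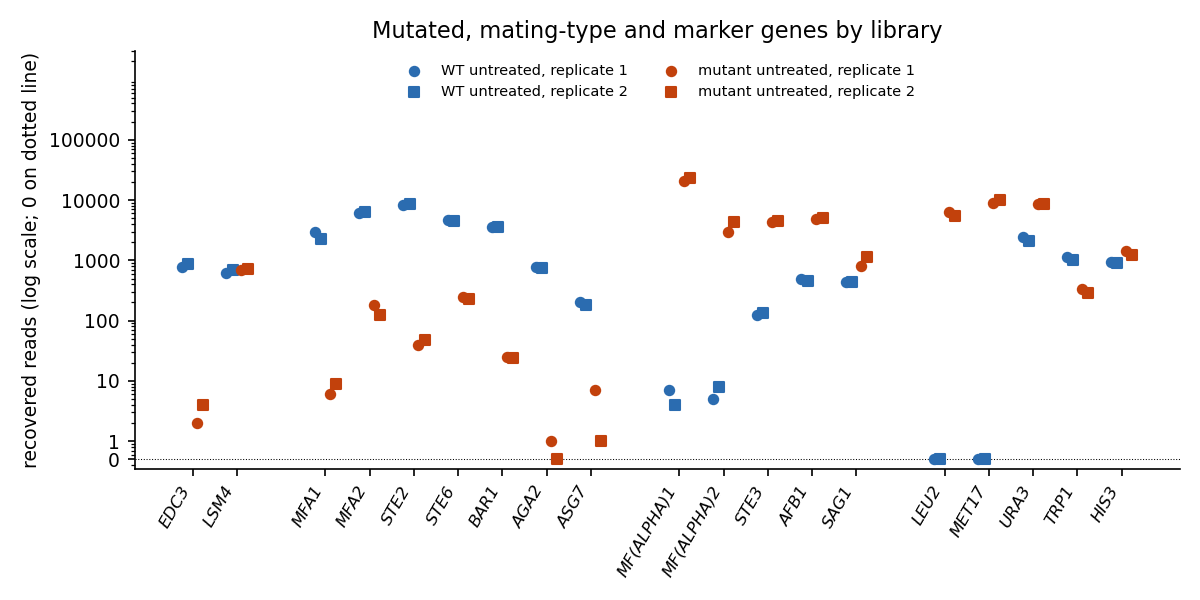
Reads recovered for the mutated genes, the genes of a cells (MFA1 to ASG7), the genes of alpha cells (MF(ALPHA)1 to SAG1) and marker genes in each of the 4 libraries, on a log scale with 0 drawn on the dotted line. EDC3 falls from 764 and 857 reads to 2 and 4 while the LSM4 libraries overlap, and the a-cell and alpha-cell genes switch between WT and mutant.

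Pheromone-induced genes were described apart from the cell-type genes, since several are known to differ between mating types. Of 21 tested, 2 were higher (9.52%) and 8 lower (38.1%) in the mutant, beside 11.0% and 11.6% over all transcripts. The median log2 fold change was -0.51, and ASG7 is in this list too. FUS1, needed for cell fusion, had counts of 289.7 and 261 in WT and 24.6 and 45.1 in the mutant (log2 fold change -3.01 ± 0.30, adjusted p = 0.0013), and the groups did not overlap. AGA1, the anchor subunit of agglutinin, changed by -1.91 and SST2, which desensitizes the pheromone pathway, by -1.25. PRM10 and the phosphatase gene MSG5 were the 2 higher genes (1.40 and 0.85).

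Some transcripts had reads almost only in 1 strain. With at most 3 reads in each library of 1 strain and at least 50 in each of the other, 12 transcripts were seen on the WT side and 3 on the mutant side. Outside the marker and mating lists there were 12, which include HMRA1 and YHR054C described above. Of these, 9 (75.0%), HMRA1 among them, lie within 30 kb of a chromosome end in the R64 reference, against 5.21% of all tested transcripts. Of the 416 transcripts called with a change of at least 2-fold, 16.3% lie there. REE1, a regulator of enolase, had 949 and 803 reads in WT and 0 and 0 in the mutant, and AIF1, the yeast apoptosis-inducing factor gene, 498 and 445 against 0 and 0. ARN2, a siderophore transporter gene, had 494 and 397 against 0 and 0, AAD6, an aryl-alcohol dehydrogenase gene, 439 and 362 against 0 and 0, and the subtelomeric gene COS8 1235 and 1017 against 2 and 2. RDT1 and YLR460C also had 0 reads in both mutant libraries. YAR068W was the reverse case, with 1 and 0 reads in WT and 389 and 353 in the mutant, and COS4, which has near-identical copies, rose from 7 and 3 reads to 461 and 434.

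Retrotransposon transcripts differed mostly in the same direction. Of 48 tested, 3 were higher and 26 lower, with a median log2 fold change of -0.98. Near-identical copies or overlaps make 47 of the 48 uncertain, because reads from one element can be counted on another. YGR027W-B had normalized read counts of 773 and 1002 in WT and 14.6 and 13.4 in the mutant and was lower, whereas YCL019W had 6.99 and 5.67 in WT and 279 and 329.8 in the mutant and was higher.

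Over all 5665 transcripts, 1277 (22.5%) differed at a Benjamini-Hochberg adjusted p under 0.05 by limma, 621 (11.0%) higher and 656 (11.6%) lower in the mutant. A change of at least 2-fold was called for 233 (4.11%) higher and 183 (3.23%) lower. Without mutant replicate 1 the count fell to 755, with 407 higher and 348 lower, and without mutant replicate 2 it was 854, with 503 higher and 351 lower. It was 1539 without WT replicate 1 and 1357 without WT replicate 2. In all, 634 of the 1277 kept the call when each library was left out in turn. The 4 libraries held 14108937 to 15481204 reads, and replicates had a Pearson r across genes of 0.986 in WT and 0.994 in the mutant, against 0.912 to 0.924 between the strains. In both pairs the replicates differed by far more than sampling noise, with a chi-square of 34.4 times its degrees of freedom in WT and 16.6 in the mutant. The values in 3581 transcripts (63.2%) did not overlap between the strains, so that lack of overlap alone selects little.

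**Figure D2:**
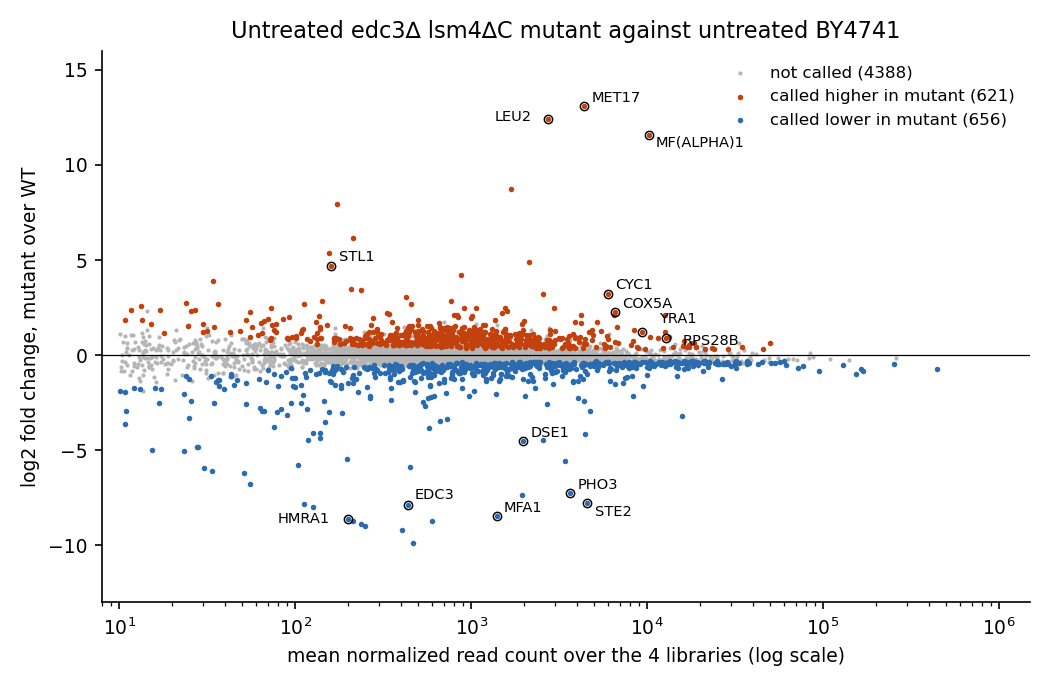
Mean normalized read count over the 4 libraries (log axis) against the log2 fold change of mutant over WT for all 5665 transcripts, with 621 called higher and 656 called lower in colour and circles around named genes. Marker and mating genes form the upper extreme, REE1 lies lowest at -9.86, and most calls lie within 2-fold.

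The Edc3 substrates were both higher. YRA1, whose protein is an mRNA export adaptor and limits its own level through decay of its intron-containing transcript, had normalized read counts of 5408 and 5761 in WT and 13627 and 12706 in the mutant. The libraries of each strain lay close together and the strains did not overlap, at 2.36-fold higher (log2 fold change 1.24 ± 0.09, adjusted p = 0.000463). The counts do not separate spliced from unspliced YRA1. RPS28B encodes a small-subunit ribosomal protein that is known to direct decay of its own mRNA through Edc3, and had 7152 and 10885 in WT and 15868 and 17247 in the mutant. Both mutant libraries exceeded both WT libraries, although these differed from each other, and the change was 1.87-fold higher (0.91 ± 0.19, adjusted p = 0.0195). Both calls held when each library was left out in turn. In perchlorate, with other libraries of the same strains, YRA1 changed by 1.30 and RPS28B by 1.19, both called.

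RPS28B stood apart among cytosolic ribosomal protein genes. It was the 1 gene of 137 called higher, while 69 were lower, and the median log2 fold change of the list was -0.33. Its paralog RPS28A, which encodes the same ribosomal position, had 15223 and 15438 in WT and 11538 and 12355 in the mutant (log2 fold change -0.36 ± 0.09, adjusted p = 0.0281), a call lost without either mutant replicate. RPL1A, which has a near-identical copy, was the lowest at -1.08, followed by RPL9A (-0.56, not called without mutant replicate 1) and RPS0B (-0.53). The count of lower genes was carried by single libraries: it was 2 without mutant replicate 1, 7 without mutant replicate 2, 100 without WT replicate 1 and 47 without WT replicate 2. On reads per 1000000 library reads (RPM), the median of the list was 0.49 lower in the unshocked than in the untreated WT libraries on the log2 scale, and 0.34 higher in the mutant than in unshocked WT. RPS28B stood at 465 and 680.3 RPM in untreated WT, 354 and 294 in unshocked WT and 1126 and 1247 in the mutant, so that both WT groups lay under the mutant.

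**Figure D3:**
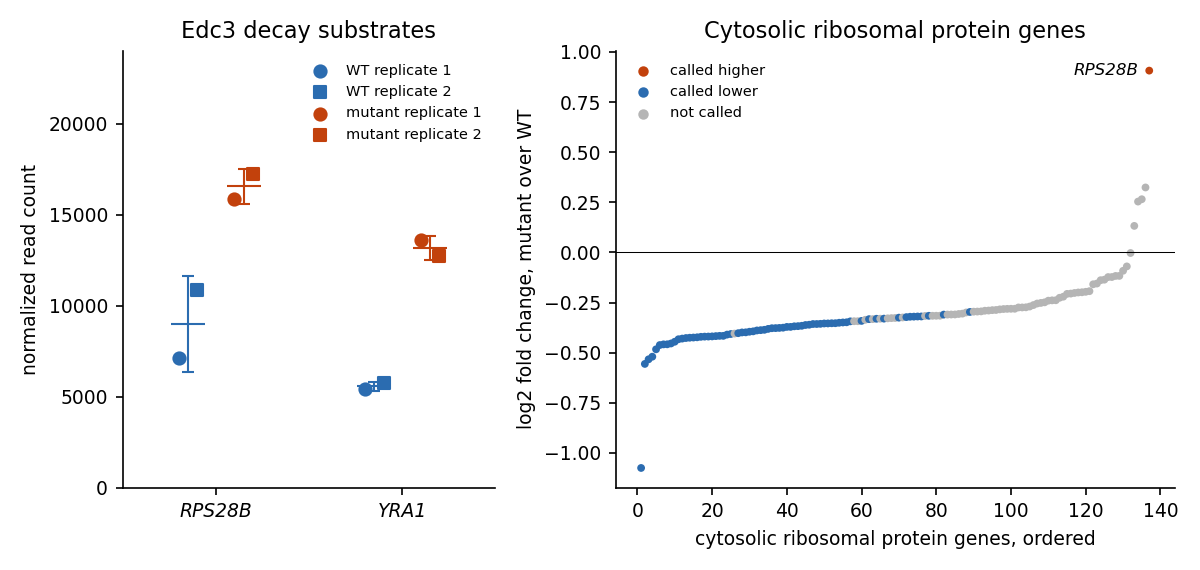
Left, normalized read counts of RPS28B and YRA1 in each library with mean and SD (n = 2 per strain), from 0. Right, log2 fold changes of 137 genes of the cytosolic ribosome in ascending order, with RPS28B at 0.91 as the 1 gene called higher and 69 called lower.

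Genes of the decay machinery were called in small numbers. Of 20 genes for P-body and decapping factors, 1 was higher (5%) and 3 were lower (15%), beside 11.0% higher and 11.6% lower over all transcripts. The deleted gene EDC3 was 1 of the 3 lower. PAT1, which links the Lsm1-7 ring to decapping, had 3076 and 3091 in WT and 4394 and 3764 in the mutant (log2 fold change 0.40 ± 0.11, adjusted p = 0.0462), a call lost when any of the 4 libraries was left out. LSM7, another ring subunit, had 617 and 594 in WT and 411 and 418 in the mutant (-0.55 ± 0.12, adjusted p = 0.0213), and SBP1, a repressor of translation, changed by -0.35. The LSM7 and SBP1 calls were lost without mutant replicate 1 and without mutant replicate 2, which left a lower count of 1 in each case. DCP2 had 3607 and 3953 in WT and 4008 and 3661 in the mutant, with a log2 fold change of 0.02 ± 0.10, and XRN1, the 5′ exonuclease gene, changed by -0.28 ± 0.10. Neither passed the test.

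None of 12 deadenylation genes was called by limma at an adjusted p under 0.05, and their log2 fold changes ran from -0.13 to 0.34. CCR4, the catalytic deadenylase gene, had the smallest p among them (0.34, adjusted p = 0.144). The count was also 0 of 12 at an unadjusted p under 0.05 (36.1% of all transcripts), by edgeR (22.9% of all) and by DESeq2 (24.4%). Of 21 genes for nonsense-mediated decay, the Ski complex and the exosome, 2 were higher (9.52%) and none lower, beside 11.0% and 11.6% over all transcripts. RRP45, an exosome subunit gene, had 961 and 1031 in WT and 1846 and 2000.8 in the mutant (0.95 ± 0.11, adjusted p = 0.0021), and RRP40, another, changed by 0.42, a call lost without mutant replicate 1, without mutant replicate 2 and without WT replicate 1. Stress-granule and initiation factors had 2 higher (6.90%) and 3 lower (10.3%) of 29, also near the shares over all transcripts. PAB1, the poly(A)-binding protein gene, stood at -0.49 (not called without mutant replicate 2) and EAP1, an eIF4E-binding protein gene, at 0.53 (not called without either mutant replicate). For splicing factors that use the Lsm2-8 ring the count was 0 higher and 1 lower of 29, the helicase gene PRP43 (-0.45), which was not called without mutant replicate 1, mutant replicate 2 or WT replicate 2. At an unadjusted p under 0.05 that list had 5 higher and 1 lower, by edgeR 1 and 1, and by DESeq2 0 and 1.

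Mitochondrial gene expression gave a uniform group. The list was added after the values had been seen. Of 73 genes for mitochondrial ribosomal proteins 71 (97.3%) were higher and none lower, with a median log2 fold change of 1.04 and a range of 0.15 to 2.05, against a median of 0.01 over all transcripts. The count was 70 or 71 when each library was left out in turn. MHR1, a large-subunit protein also known in mitochondrial DNA recombination, had 399 and 390.1 in WT and 1712 and 1559.8 in the mutant (2.05 ± 0.12, adjusted p = 0.000137). MRPL15 had 339.7 and 433 in WT and 1006 and 1137 in the mutant (1.48 ± 0.16, adjusted p = 0.00163). RSM28, of the small subunit, had 538 and 562 in WT and 1531 and 1495 in the mutant (1.46 ± 0.11, adjusted p = 0.000463). In each of the 3 genes the strains did not overlap. MRP8, which was named a mitochondrial ribosomal protein from its sequence, was 1 of the 2 genes not called (0.15).

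The synthetases that charge mitochondrial tRNAs behaved alike, with 12 of 13 higher, none lower and a median of 0.83. MSW1, the tryptophan enzyme, had 333 and 274 in WT and 1314 and 1276 in the mutant (2.10 ± 0.14, adjusted p = 0.000262). SLM5, the asparagine enzyme, changed by 1.29 and MSY1, the tyrosine enzyme, by 1.20. The count was 7 without mutant replicate 1 and 9 without mutant replicate 2. Assembly factors of cytochrome oxidase and of the bc1 complex had 21 of 27 higher and none lower, with a median of 0.74, and 14 higher without mutant replicate 1. COA2, an assembly factor of cytochrome oxidase, had 269.8 and 300.5 in WT and 855 and 815 in the mutant (1.55 ± 0.13, adjusted p = 0.000653), and CBP6, a translational activator for cytochrome b, had 205 and 208 in WT and 549 and 563 in the mutant (1.43 ± 0.13, adjusted p = 0.000908). COX17, the copper chaperone of cytochrome oxidase, had 309 and 298 in WT and 739 and 756 in the mutant, at 2.46-fold higher (adjusted p = 0.00102). On RPM the mutant's median for the assembly factors was only 0.28 above unshocked WT on the log2 scale, beside 0.10 over all transcripts. Unshocked WT itself lay 0.74 above untreated WT for these genes. For the synthetases these values were 0.58 and 0.40.

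Many of these messages share a short sequence after their coding region. Puf3 is an RNA-binding protein that is known to bind UGUA followed by any base and AUA in the 3′ ends of nuclear-encoded mitochondrial messages, COX17 among them, and to promote their deadenylation and decapping. The letters TGTANATA were searched, after the values had been seen, on the sense strand of the 200 bases that follow the annotated coding sequence of 5652 tested nuclear protein-coding genes. Sites of 6 genes are shown because these genes are among the named members of the mitochondrial groups, with the motif in capitals and 8 bases on each side. The sequences are from the RefSeq R64 genome. The authors' build is not given in the sources used here.
MHR1: taagctcaTGTAAATAgtgcaatg
MSW1: aaacgcaaTGTAAATAataataca
RSM28: tacataccTGTAAATAtctagtac
CBP6: tctaagctTGTAAATAcatattta
COX17: atactaccTGTAAATAtgtgcgat
MRPL11: ttcaatcaTGTACATAcatcatca
In R64 these windows are MHR1 chrIV:1055942-1055965, MSW1 chrIV:1005168-1005191, RSM28 chrIV:1438039-1438062 and MRPL11 chrIV:99270-99293 on the forward strand and CBP6 chrII:480397-480420 and COX17 chrXII:131113-131136 on the reverse strand. Their motifs begin 58, 33, 32, 23, 77 and 54 bases after the coding sequence, in the order shown. COX17 has another site, TGTATATA, 32 bases after its coding sequence, which is not shown.

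The motif was present after 71 of 73 mitochondrial ribosomal protein genes (97.3%), 13 of 13 mitochondrial synthetase genes and 26 of 27 assembly-factor genes (96.3%). It followed 830 of all 5652 genes (14.7%) and 6 of 137 cytosolic ribosomal protein genes (4.38%). Of the 830 genes with the motif, 260 (31.3%) were called higher and 49 (5.90%) lower, and their median log2 fold change was 0.21. Of the 4822 genes without it, 356 (7.38%) were higher and 604 (12.5%) lower, with a median of -0.01. Seen from the calls, the motif followed 42.2% of the genes called higher, 7.50% of those called lower and 11.9% of those not called. The search was made after the mitochondrial groups had been seen, so these shares describe the calls and are no test of them.

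The pattern was not limited to the 4 mitochondrial lists, although it was weaker outside them. These lists do not hold all genes for mitochondrial proteins, and TIM9 and OMS1, given below, are such genes outside them. Within the lists, 107 of 115 genes with the motif were higher (93.0%) and 0 lower, with a median of 1.00. Of the 36 listed genes without it, 28 (77.8%) were higher and 1 (2.78%) lower, with a median of 0.80. Of 715 genes with the motif that are in none of the 4 mitochondrial lists, 153 (21.4%) were higher and 49 (6.85%) lower, and the median was 0.13. TIM9, a chaperone of protein import into the inner membrane, had 404 and 416 in WT and 1578 and 1601 in the mutant (1.95 ± 0.11, adjusted p = 0.000137), and OMS1, a mitochondrial inner-membrane protein gene, had 312 and 357 in WT and 1359 and 1329 in the mutant (2.01 ± 0.13, adjusted p = 0.000205). Over all 830 genes with the motif, those in the mitochondrial lists included, and by the variable base, 119 of 224 genes with TGTAAATA alone were higher (53.1%; median 0.58), against 31 of 122 with TGTACATA (25.4%; 0.18), 79 of 388 with TGTATATA (20.4%; 0.07) and 6 of 48 with TGTAGATA (12.5%; -0.02). Without mutant replicate 1 the count of genes with the motif called higher was 176 of 830, and without mutant replicate 2 it was 192. Outside the mitochondrial lists it was 84 and 96 of 715, and that of lower genes 29 and 26. MRPL11, shown above with TGTACATA, had 441 and 532 in WT and 1292 and 1270.3 in the mutant (1.40 ± 0.13, adjusted p = 0.00113).

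**Figure D4:**
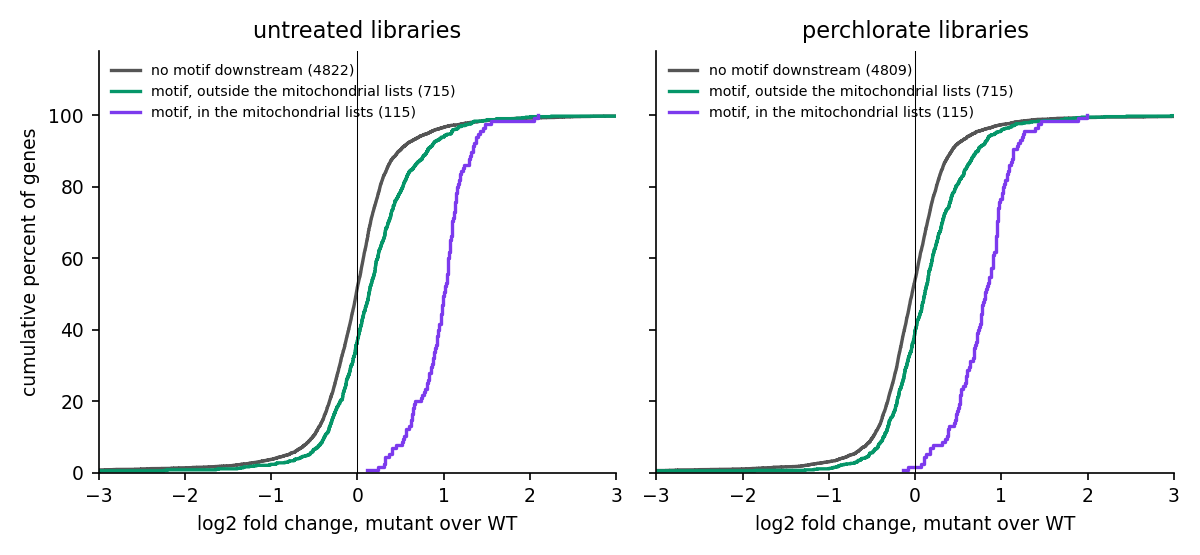
Cumulative percent of genes against the log2 fold change of mutant over WT, in untreated (left) and perchlorate libraries (right). Genes whose coding sequence is followed by the Puf3 letters and that are in the mitochondrial lists (115) lie to the right, with medians of 1.00 untreated and 0.81 in perchlorate, genes with the letters outside those lists (715) in between, with 0.13 and 0.11, and genes without the letters (4822 and 4809) at -0.01 and -0.04.

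In the perchlorate libraries, which share none with the untreated ones, 70 of 73 mitochondrial ribosomal protein genes were higher with a median of 0.88, and 297 of the 830 genes with the motif were higher and 81 lower. Against unshocked WT, on RPM, the mutant's median was 0.75 higher for mitochondrial ribosomal protein genes on the log2 scale and 0.29 higher for genes with the motif, beside 0.11 over all 5652 genes. Unshocked WT itself was above untreated WT by 0.50 and 0.21, beside 0.10 over all genes. PUF3, chosen after its values were seen, had 1059 and 898 in WT and 1888 and 1458 in the mutant (0.77 ± 0.16, adjusted p = 0.019), a call lost without mutant replicate 1 and without WT replicate 2.

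Respiratory chain genes were higher too, mostly without that motif, which followed 5 of the 38 genes (13.2%). Of the 38 genes for respiratory chain and ATP synthase subunits, 31 were higher and 1 was lower, with a median of 0.80. CYC1 had 1231 and 1128 in WT and 11059.7 and 10637 in the mutant (3.20 ± 0.10, adjusted p = 1.02e-05). Cytochrome oxidase subunit 5 has a pair of alternative forms that are known to be used with and without oxygen. COX5A, the aerobic form, had 2243 and 2234 in WT and 10969.6 and 10821 in the mutant (2.28 ± 0.09, adjusted p = 2.32e-05), and COX5B, the low-oxygen form, had 1032 and 967 in WT and 249 and 202 in the mutant (-2.15 ± 0.15, adjusted p = 0.000303). The pair therefore moved in opposite directions with no overlap between strains in either gene. CYC7, which encodes the form of cytochrome c known to be favoured at low oxygen, had 156 and 93 in WT and 709 and 405 in the mutant (2.14 ± 0.33, adjusted p = 0.00648). RIP1, the iron-sulfur subunit gene of the bc1 complex, changed by 1.67, while the ATP synthase gene ATP2 changed by 0.34, a call lost without either mutant replicate.

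In perchlorate 17 of the 38 respiratory genes were higher and 2 lower, with a median of 0.28, and CYC1 changed by 2.82, COX5A by 1.76 and COX5B by -1.32. Over all transcripts in perchlorate 31.9% were called, 16.3% higher and 15.6% lower. Against unshocked WT the untreated mutant's median for the list was 0.58 higher on the log2 scale of RPM.

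Genes regulated by heme and oxygen went both ways, with 6 higher and 6 lower of 21, CYC1, CYC7 and COX5B among them. ROX1 (0.83) and HYP2 (0.65) were also called higher, and AAC3 (-1.10) and SUT1 (-0.72) lower. CYB2, a lactate dehydrogenase that feeds electrons to cytochrome c, had 449.6 and 215 in WT and 2347 and 1256 in the mutant (2.46 ± 0.40, adjusted p = 0.00796). The cell wall mannoprotein gene TIR1 had 107 and 175 in WT and 17.3 and 15.3 in the mutant (-2.99 ± 0.30, adjusted p = 0.00133). ANB1, the anaerobic form of initiation factor 5A, had 67.9 and 51 in WT and 7.28 and 12.5 in the mutant (-2.50 ± 0.36, adjusted p = 0.00475). Both are known for growth at low oxygen, but so are TIR2, TIR3, TIR4, DAN4, PAU23, HEM13 and OLE1, which were not called (from -0.85 for TIR2 to 0.47 for OLE1). HAP1, the heme-responsive activator gene, is known to carry a transposon insertion in strains of the BY4741 lineage, and had 4157 and 3189 in WT and 1839.6 and 1354 in the mutant (-1.21 ± 0.19, adjusted p = 0.00657), and YHB1, the flavohemoglobin that consumes nitric oxide, was 4.35-fold higher. HAP1 and YHB1 were picked after their values were seen.

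The mitochondrial genome's own transcripts, also picked after their values were seen, did not share a direction. Of 5 tested, 3 were higher and 2 lower. COX1, which overlaps another annotated gene, had 299 and 231 in WT and 12.7 and 11.5 in the mutant (-4.33 ± 0.24, adjusted p = 0.000116), and OLI1, an ATP synthase subunit, had 351 and 209.8 in WT and 80.1 and 84.4 in the mutant (-1.71 ± 0.26, adjusted p = 0.00583). ATP6 had 5 and 2 reads in WT and 77 and 62 in the mutant, and VAR1, the mitochondrially encoded ribosomal protein, had 24 and 35.2 in WT and 103 and 103 in the mutant (1.79 ± 0.26, adjusted p = 0.00481).

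**Figure D5:**
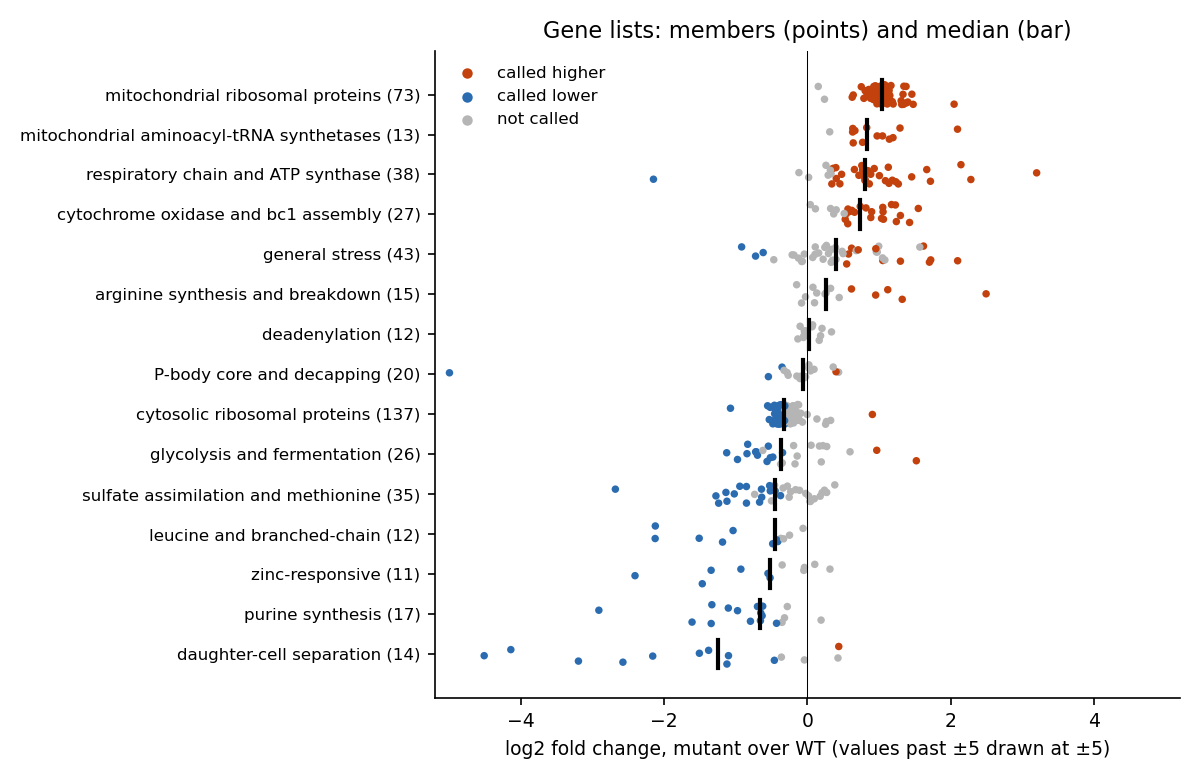
Log2 fold change of mutant over WT for each tested member of 15 gene lists (number tested in brackets), coloured by call, with black bars at list medians. Mitochondrial ribosomal protein genes lie at a median of 1.04 and daughter-cell separation genes at -1.25, and values past 5 in size are drawn at the edge.

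Genes for the separation of daughter from mother cells were lower, in a list that was added after the values had been seen. Of 14 tested, 10 were lower and 1 was higher, the cyclin gene CLN3 (0.44, not called without mutant replicate 1, mutant replicate 2 or WT replicate 1), and the median was -1.25. CTS1, the chitinase that cuts the septum, had 28901 and 27752 in WT and 3109 and 3059 in the mutant (-3.20 ± 0.09, adjusted p = 5.61e-06). DSE1 had 3982 and 3617 in WT and 151 and 180.2 in the mutant (-4.52 ± 0.14, adjusted p = 9.12e-06), and DSE2, a daughter-cell wall protein gene, had 8072 and 8718 in WT and 529 and 425 in the mutant (-4.14 ± 0.13, adjusted p = 1.19e-05). The strains did not overlap in CTS1 or DSE2, while DSE1 was picked among transcripts without overlap. SCW11, a wall glucanase gene, changed by -2.58. In perchlorate 12 of 14 were lower and 1 higher, with a median of -1.05. Unshocked WT lay with untreated WT, at 2046 and 2374 RPM for CTS1 against 1880.2 and 1735, and the mutant stood at 221 and 221. AMN1, an inhibitor of mitotic exit whose allele is known to differ between yeast strains, changed by -1.51.

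Amino acid genes divided by pathway. For leucine and the other branched-chain amino acids 8 of 12 genes were lower and none higher, with a median of -0.46. LEU1, the second enzyme of leucine synthesis, had 13378 and 13685 in WT and 3155 and 3039 in the mutant (-2.13 ± 0.09, adjusted p = 3.12e-05). OAC1, a mitochondrial carrier for the leucine precursor, had 1598 and 1576 in WT and 331 and 398 in the mutant (-2.12 ± 0.13, adjusted p = 0.000205), and BAT1, the mitochondrial branched-chain aminotransferase, had 9182 and 10368 in WT and 3509 and 3333 in the mutant (-1.51 ± 0.10, adjusted p = 0.000302). None of these 3 genes overlapped between strains, and LEU4, the first enzyme of the pathway, changed by -1.19. The count of lower genes was 5 without mutant replicate 2. These genes moved beside LEU2, which had reads only in the mutant, and its part in the result was not tested. In perchlorate 0 were higher and 3 lower by limma, LEU1 (-0.56), OAC1 (-0.34) and BAT1 (-0.33), and the list's median was 0.03. The difference between the untreated and perchlorate effects was not tested. On RPM the list's median log2 ratio of untreated mutant over unshocked WT was -0.08, beside 0.10 over all transcripts. That of unshocked over untreated WT was -0.64, so the lower level in the mutant depended on which WT libraries served as reference.

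Leu3 is the transcription factor that is known to control this pathway and to bind CCGG, any 2 bases and CCGG upstream of its genes. These letters, which read the same on both strands, were found in the 500 bases before the coding sequence of 4 of the 12 genes (33.3%) and of 16 of 5652 genes (0.283%). Of those 16 genes, 4 were called higher, 7 lower and 5 neither. The 4 windows are shown 5′ to 3′ on the strand of the gene, with the motif in capitals, because BAT1, LEU1 and the acetolactate synthesis genes ILV2 and ILV5 carry it at different distances.
BAT1: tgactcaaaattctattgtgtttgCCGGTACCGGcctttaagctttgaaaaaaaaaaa
LEU1: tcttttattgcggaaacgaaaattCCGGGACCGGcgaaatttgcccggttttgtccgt
ILV2: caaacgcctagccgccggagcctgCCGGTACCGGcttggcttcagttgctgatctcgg
ILV5: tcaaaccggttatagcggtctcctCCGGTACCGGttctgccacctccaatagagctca
In R64 these are BAT1 chrVIII:517361-517418 and ILV2 chrXIII:483592-483649 on the forward strand and LEU1 chrVII:478836-478893 and ILV5 chrXII:839597-839654 on the reverse strand, and the motif ends 137 bases before the coding sequence in BAT1, 207 in LEU1, 458 in ILV2 and 367 in ILV5. LEU1 and BAT1 were called lower, and so were ILV2 (-0.49 ± 0.10, adjusted p = 0.0158) and ILV5 (-0.43 ± 0.10, adjusted p = 0.028), but the ILV2 call was lost without mutant replicate 2 and the ILV5 call without either mutant replicate.

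Genes for sulfate assimilation and methionine were lower in untreated cells, with 16 of 35 lower, none higher and a median of -0.45. At an unadjusted p under 0.05 2 were higher, and by DESeq2 1 was. MMP1, a transporter of S-methylmethionine, had 774 and 1124 in WT and 131 and 159 in the mutant (-2.68 ± 0.21, adjusted p = 0.000543). MET6, methionine synthase, had 33291 and 42379 in WT and 15313 and 15661 in the mutant (-1.28 ± 0.13, adjusted p = 0.00124), and MET10, a subunit of sulfite reductase, changed by -1.24. In perchlorate the same list had 14 higher and 2 lower, with a median of 0.17. MET17, absent from WT and present in the mutant, lies in this pathway, and its part in the result was not tested.

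Arginine genes were the opposite, with 5 of 15 higher and none lower. ARG3, ornithine carbamoyltransferase, had 425 and 511 in WT and 2654 and 2609.6 in the mutant (2.50 ± 0.13, adjusted p = 9.46e-05), and ARG1, argininosuccinate synthase, had 4295 and 5413 in WT and 12493 and 11663 in the mutant (1.32 ± 0.13, adjusted p = 0.00123). ARG8, an acetylornithine aminotransferase, changed by 1.12, and the catabolic arginase gene CAR1 by 0.95, a call lost without WT replicate 2. In perchlorate ARG3 changed by 3.64 and ARG1 by 2.97. Of 6 histidine genes 2 were lower (1 without either mutant replicate), and HIS4, a trifunctional enzyme of the pathway, had 6103 and 7216 in WT and 1597 and 1236 in the mutant (-2.24 ± 0.15, adjusted p = 0.000314), but changed by -0.07 in perchlorate. For lysine 1 of 10 was higher (10%, beside 11.0% over all transcripts). The gene was LYS1 (0.45), a call lost without mutant replicate 1, without mutant replicate 2 and without WT replicate 1.

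Purine synthesis was lower, with 13 of 17 genes lower, none higher and a median of -0.66. ADE17, which carries out the last steps of inosine monophosphate synthesis, had 7511 and 9312 in WT and 1277 and 964 in the mutant (-2.91 ± 0.17, adjusted p = 0.000156), with no overlap between strains. SHM2, the cytosolic serine hydroxymethyltransferase that supplies folate carbon, had 11689.5 and 16888 in WT and 4641 and 4552 in the mutant (-1.61 ± 0.17, adjusted p = 0.00161), ADE1 changed by -1.34 and ADE13 by -1.33. The count was 10 without mutant replicate 1 and 14 without WT replicate 1. Unshocked WT was on the same side as untreated WT, with ADE17 at 851 and 957 RPM in unshocked WT, 489 and 582 in untreated WT and 90.6 and 69.7 in the mutant. In perchlorate 5 genes were lower and 2 higher, with a median of -0.22.

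Among nutrient genes, PHO3, a constitutive acid phosphatase that is also repressed by thiamine, had 6610.1 and 7910.3 in WT and 48.2 and 44.1 in the mutant (-7.26 ± 0.14, adjusted p = 1.4e-06), the largest fall outside EDC3, the mating genes and the transcripts with at most 3 reads in each mutant library. Of 25 phosphate genes 2 were higher (8%) and 9 lower (36%), beside 11.0% and 11.6% over all transcripts. The lower count was 5 without mutant replicate 1 and 4 without mutant replicate 2, and the higher count 5 without WT replicate 1. PHO84, the high-affinity phosphate transporter, overlaps another gene and had 114 and 209.8 in WT and 13.7 and 20.1 in the mutant (-3.14 ± 0.36, adjusted p = 0.00198). Zinc-responsive genes had 6 of 11 lower and none higher, although 1 was higher at an unadjusted p under 0.05 and by DESeq2. ZRT1, the high-affinity zinc transporter, had 6577 and 7826 in WT and 806 and 2262 in the mutant (-2.41 ± 0.43, adjusted p = 0.011), and its activator ZAP1 had 635 and 539 in WT and 215 and 245 in the mutant (-1.35 ± 0.15, adjusted p = 0.00189). ZRT1 spread widely between libraries, with 2525 and 3635 RPM in unshocked WT against 428 and 489 in untreated WT and 57.2 and 164 in the mutant.

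Of 28 iron genes 2 were higher (7.14%) and 10 lower (35.7%), beside 11.0% and 11.6% over all transcripts. HMX1, heme oxygenase, had 269.8 and 122 in WT and 1442 and 1225 in the mutant (2.86 ± 0.34, adjusted p = 0.00233). TIS11, an mRNA-binding protein that speeds decay of messages for iron-using proteins, had 361 and 138 in WT and 39.1 and 44.1 in the mutant (-2.40 ± 0.43, adjusted p = 0.0107), and SIT1, a siderophore transporter, changed by -1.44. Of 10 copper genes 4 were higher (40%) and 1 lower (10%). CTR3, a copper transporter whose promoter is known to carry a transposon in some laboratory strains, had 79.9 and 90.7 in WT and 533 and 992 in the mutant (3.08 ± 0.29, adjusted p = 0.00109), and the metallothionein-like gene CRS5 changed by 1.57. CUP1-1 and CUP1-2, the metallothionein genes, had at most 5 reads in any of the 4 libraries and were not tested.

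Glycolysis was lower, and alternative carbon genes are described after it. Of 26 glycolysis and fermentation genes 12 were lower (46.2%) and 2 higher (7.69%), with a median of -0.36. Over all transcripts 11.6% were lower and 11.0% higher. FBA1, aldolase, had 196230.0 and 213979 in WT and 104078 and 104115 in the mutant (-0.98 ± 0.08, adjusted p = 0.000577), and TDH1, a minor glyceraldehyde-phosphate dehydrogenase, changed by -1.13. The 2 higher genes were ADH2, the ethanol-using alcohol dehydrogenase, with 255 and 197 in WT and 950.3 and 438 in the mutant (1.52 ± 0.35, adjusted p = 0.0254), a call lost without WT replicate 2, and GPD1, which makes glycerol (0.97). In perchlorate 13 were lower and 3 higher, and against unshocked WT the mutant's median was 0.56 lower.

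In the TCA and glyoxylate list 8 of 33 genes were higher (24.2%) and 3 lower (9.09%), beside 11.0% and 11.6% over all transcripts. SDH2, a succinate dehydrogenase subunit, had 1800.4 and 1762 in WT and 3924 and 3752 in the mutant (1.11 ± 0.10, adjusted p = 0.000817), and DIC1, the mitochondrial dicarboxylate carrier, had 3284 and 3741 in WT and 1027 and 1118 in the mutant (-1.71 ± 0.12, adjusted p = 0.000303). The count of higher genes was 3 without mutant replicate 1 and 5 without WT replicate 2. STL1, a glycerol importer that is normally repressed by glucose, had 9.99 and 12.5 in WT and 333 and 285 in the mutant (4.67 ± 0.23, adjusted p = 7.72e-05) and changed by 4.12 in perchlorate. For hexose transport 4 of 16 were higher (25%, beside 11.0% over all transcripts). In perchlorate 3 of 18 were higher and 2 lower, with a median of -0.10. On RPM the untreated mutant's median was 0.12 above unshocked WT on the log2 scale, and unshocked WT was 0.40 above untreated WT. Among the 4 genes, HXT4 had untreated counts of 4178 and 1298 in WT and 13118 and 7439 in the mutant (2.08 ± 0.53, adjusted p = 0.0347). The WT replicates of HXT4 lay far apart, and the list had 9 higher without mutant replicate 2 and 8 without WT replicate 1.

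Stress genes depended on which WT libraries served as reference. Of 43 general stress genes 11 were higher (25.6%) and 3 lower (6.98%) in the mutant, with a median of 0.39. Over all transcripts 11.0% were higher and 11.6% lower. CTT1, cytosolic catalase, had 2217 and 1067 in WT and 8379.9 and 5176 in the mutant (2.10 ± 0.36, adjusted p = 0.00994), and the hydrophilin gene GRE1 had 137 and 197 in WT and 547 and 542 in the mutant (1.72 ± 0.20, adjusted p = 0.00198). HSP26, a small heat shock protein, was lower, with 810.3 and 711 in WT and 348 and 462 in the mutant (-0.92 ± 0.17, adjusted p = 0.0123). On RPM the median of the list was 1.62 higher in unshocked than in untreated WT on the log2 scale, and 0.96 lower in the mutant than in unshocked WT. CTT1 stood at 144 and 66.7 RPM in untreated WT, 448 and 465 in unshocked WT and 595 and 374 in the mutant. The count of higher genes was 26 without WT replicate 1 and 18 without mutant replicate 2. In perchlorate 6 were higher and 9 lower.

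Membrane sterol genes had 10 of 26 higher (38.5%) and 4 lower (15.4%), beside 11.0% and 11.6% over all transcripts. HMG1, the main HMG-CoA reductase and the rate-limiting step of the pathway, had 2503 and 3016 in WT and 7333 and 6645 in the mutant (1.34 ± 0.12, adjusted p = 0.00102), and ERG5, a sterol desaturase, changed by 1.06. The count of higher genes was 3 without mutant replicate 1 and 4 without mutant replicate 2, and that of lower genes was 0, 0 and, without WT replicate 2, 1. In perchlorate 4 sterol genes were higher and 3 lower, with a median of 0.04. Among lists called less often than the background share untreated were those for ribosome biogenesis, with 0 higher and 2 lower of 78 (1 and 4 at an unadjusted p under 0.05, 0 and 1 by edgeR, 0 and 3 by DESeq2), for the proteasome, with 1 higher and 0 lower of 34, and for autophagy, with 2 higher and 1 lower of 29. For ribosome biogenesis the mutant's median was 1.18 higher than unshocked WT on the log2 scale of RPM, and unshocked WT was 1.05 lower than untreated WT.

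The genotype comparison was repeated on the 4 perchlorate libraries, which share no library with the untreated ones but come from the same strains, so that the marker and mating differences recur. Of 5701 transcripts tested there, 1818 (31.9%) were called, 931 (16.3%) higher and 887 (15.6%) lower. Of the 621 called higher untreated, 482 (77.6%) were also higher in perchlorate and 5 were lower. Of the 653 called lower untreated and tested in both, 400 (61.3%) were also lower and 17 were higher. Of the 1801 perchlorate calls tested in both, 49.0% were called the same way untreated. Across 5652 genes the Pearson r of the log2 fold changes was 0.87 and Spearman's rho 0.67, a description over genes, which are not independent replicates.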

How the data were processed

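RNA was extracted with hot phenol and libraries were made with a directional kit, per the labels' protocols. The submitters' processing notes name Trim Galore, FastQC and HISAT2, without versions, and the deposited summary sheets name DESeq2 1.34.0. The read counter and its strand setting are not stated, and the build is not given in the sources used here. The deposited tables hold, per the file headers, normalized counts for each comparison, here treated as a signal equal to reads divided by the library's size factor. The deposited log2 fold changes with their standard errors and the p-values and q-values of the authors' DESeq2 test were read but no result rests on them.

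Whole reads were recovered by dividing by the value of 1 read, and 100.0% of values were whole within 0.01 reads. For the 8 libraries in 2 tables, 0 recovered values differed. Transcripts were matched to names by RefSeq accession (5941) or locus tag (26), and 3 transcripts are not analysed here. Library totals over the 12 libraries were 14108937 to 18360737 reads.

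Because the tables hold normalized values, limma 3.58.1 in R 4.3.3 was the main test (moderated test with a mean-variance trend, log2 of the normalized count plus 1, Benjamini-Hochberg over all transcripts with a mean of at least 10, called at an adjusted p under 0.05). Fold changes on that scale understate changes of low genes. The edgeR 4.0.16 quasi-likelihood test and DESeq2 1.42.0 on recovered reads, other pseudocounts and filters, TMM scaling, a replicate block and leaving out each library were alternatives. On simulated reads for the untreated comparison (200 changed genes with a mean of at least 50), limma recovered 95.1% of 2-fold and 100% of 4-fold changes, and 5.80% of its calls were false. These rates hold for that setting, with 200 of 5655 genes changed, all by 2- or 4-fold. They do not carry over to the calls here, which covered 22.5% of transcripts and were mostly under 2-fold. Tables were normalized separately, so values against unshocked WT are reads per 1000000 (RPM), with 0.1 added before taking log2 ratios, and have no test. Ratios of reads have 95% counting intervals, and 3 reads per library stood in for 0. Genes with near-identical copies (262 transcripts, at least 95% identity over 50% of the length, BLAST 2.17.0) or overlaps of at least 50 bases (178) are called uncertain.

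The transcripts and gene lists were chosen with earlier results of these data known, and 4 of the 48 lists were added after the values had been seen, as were the motif searches. Named genes were EDC3, LSM4 and the strain genes, the 15 largest rises and falls among called genes with a mean of at least 50 whose groups do not overlap, up to 4 called members per list by size of change (the smallest p where none was called), and RPS28B and YRA1. PUF3, HAP1, YHB1, RIP1, ATP2, TIM9, OMS1, MRP8, RPS28A, DCP2, XRN1, AMN1, CLN3, ILV2, ILV5, the low-oxygen genes that were not called and genes of the mitochondrial genome were named outside this rule, after their values were seen. So were ROX1, HYP2, AAC3 and SUT1.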

Additional observations from a re-analysis of the deposited data

Results flagged for a closer look

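Among the 204 named genes, 10 had both mutant libraries on one side of both WT libraries untreated and on the other side in perchlorate. Lack of overlap alone held for 63.2% of all tested transcripts untreated. No share of such reversals over all transcripts is given here, so the 10 cannot be called few or many. For each of these 10 genes the difference between the untreated and the perchlorate effect was not tested. DIC1, the mitochondrial dicarboxylate carrier, changed by -1.71 on the log2 scale untreated and by 0.91 in perchlorate, and both were called. PRM5, a pheromone-induced gene that also responds to cell wall damage, changed by -1.25 and 0.90, SAG1, alpha-agglutinin, by 0.95 and -0.56, HIS1, the first enzyme of histidine synthesis, by -0.48 and 0.47, and GDH3, a glutamate dehydrogenase, by 0.59 and -0.44. All of these were called in both comparisons, although the untreated calls of SAG1, HIS1 and GDH3 were lost without single libraries. Another 3 were called untreated but not in perchlorate, for which the values were -1.03 and 0.26 for HO, -1.14 and 0.16 for MET3, ATP sulfurylase, and 0.58 and -0.14 for PST1, a cell wall protein gene. FUS2 (-0.39 and 0.16) and GPA1 (-0.51 and 0.22), both of the mating pathway, were called in neither comparison. The untreated and perchlorate comparisons share no library, and their tables were normalized separately.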

How the results depend on the processing

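The count of 1277 changed transcripts was within 1.5 times of itself under other pseudocounts (1269 and 1290), no filter (1279), a mean of at least 50 (1219), TMM scaling (1282), edgeR (1298) and DESeq2 (1385). Leaving out single libraries gave 755 to 1539 calls, 407 to 773 higher and 348 to 766 lower. In that series the lower count ran from 2 to 100 for cytosolic ribosomal proteins, from 5 to 9 for branched-chain genes and from 1 to 3 for P-body factors. Of the 188 named genes called, 40 lost the call without at least 1 library. Over 2440 refits of the 204 named genes, 2318 kept direction and side of the threshold, 101 lost the call, 21 gained one and 0 changed sign.

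The replicate numbers may not pair the samples, since the labels do not say that a number marks a batch and there are only 2 pairs, whose deviations had a correlation of 0.508. With the number as a replicate block, limma called 2482 transcripts untreated, 1226 higher and 1256 lower, and 3183 in perchlorate, 1514 higher and 1669 lower.

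Unadjusted p-values, edgeR and DESeq2 also gave 0 lower genes for mitochondrial ribosomal proteins, mitochondrial synthetases, assembly factors, arginine, hexose transport and the proteasome, and 0 higher genes for branched-chain, purine and histidine synthesis. For RNA decay (exosome list) 1 gene was lower at an unadjusted p under 0.05 and 0 by edgeR and DESeq2.

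With 2 libraries per strain, a transcript that was not called is not shown to be unchanged, and transcripts at a few reads carry wide counting error. Strain, mutation and any batch cannot be told apart.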

Other observations

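Several of the largest rises outside the marker genes belong to none of the groups described. ADH7, an alcohol dehydrogenase gene, had normalized read counts of 35 and 31.8 in WT and 364 and 396 in the mutant (log2 fold change 3.47 ± 0.18, adjusted p = 8.98e-05), and YER053C-A, an uncharacterized small protein gene, had 112 and 70.3 in WT and 1854 and 1457 in the mutant (4.20 ± 0.24, adjusted p = 0.00015). RIM4, a translational repressor of meiosis, had 158 and 93 in WT and 772 and 805 in the mutant (2.69 ± 0.25, adjusted p = 0.00102), and PGU1, a pectin-degrading enzyme gene, had 19 and 23.8 in WT and 119 and 129 in the mutant (2.49 ± 0.24, adjusted p = 0.0011). SUE1, which promotes breakdown of unstable cytochrome c, had 26 and 30.6 in WT and 243 and 148 in the mutant (2.71 ± 0.28, adjusted p = 0.00158), and it rose together with CYC1 and CYC7. These genes were picked among those whose strains did not overlap, so their lack of overlap is no further result. All were also higher in perchlorate, by 3.22, 2.16, 1.98, 2.64 and 1.37.

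Genes of lists not described above also changed. GAP1, the general amino acid permease, had 1362 and 1368 in WT and 453 and 369 in the mutant (-1.74 ± 0.14, adjusted p = 0.000566), and PUT4, the proline permease, had 271 and 167 in WT and 913 and 632 in the mutant (1.83 ± 0.27, adjusted p = 0.00542). In the oxidative stress list, OYE3, an NADPH oxidoreductase gene, had 63.9 and 42 in WT and 257 and 180.2 in the mutant (2.03 ± 0.28, adjusted p = 0.00385). PIR3, a cell wall protein gene, had 627 and 456 in WT and 2816 and 2527 in the mutant (2.32 ± 0.17, adjusted p = 0.000455), while CWP1, another wall protein gene, had 10201 and 11228 in WT and 3889.6 and 3923 in the mutant (-1.45 ± 0.09, adjusted p = 0.000254). The heat shock gene SSA4 had 913 and 1052 in WT and 419 and 406 in the mutant (-1.25 ± 0.13, adjusted p = 0.00142), although in unshocked WT it stood at 299 and 464 RPM against 59.4 and 65.8 in untreated WT.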
